A study of Mus musculus with 43 samples.

Results

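The 27 genes described here encode GABA receptors and the molecules that make, load, clear and anchor GABA signalling at inhibitory synapses. They were taken by name from a list, out of the 35825 genes in the deposited tables. The list holds 4 alpha, 2 beta, 2 gamma, 1 delta, 1 epsilon, 1 theta and 2 rho subunits of the GABA-A receptor, 2 subunits of the GABA-B receptor with 3 of its KCTD auxiliary subunits, and 9 genes for GABA synthesis, vesicular loading, uptake, breakdown, postsynaptic anchoring and chloride transport. Other GABA-A subunits exist and are called subunits outside the list where they enter a value.

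GABA is the main inhibitory transmitter of the adult brain, and medium spiny neurons, the projection neurons of the nucleus accumbens, both release it and respond to it. GABA-A receptors are pentameric chloride channels. Receptors with a gamma subunit gather mostly at synapses, whereas receptors with a delta subunit lie mostly outside synapses and carry tonic current, in the striatum often together with the alpha subunit encoded by *Gabra4*. GABA-B receptors are G-protein-coupled dimers whose signal is shaped by KCTD proteins, and the direction of the chloride current depends on the balance of chloride extrusion and uptake.

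The genes were measured in 43 single NAcLat→VTA cells, neurons of the lateral nucleus accumbens that project to the ventral tegmental area. The study used male and female mice, C57BL/6J among other lines, given as 6 to 8 weeks old for all experiments together, and strain, sex and age are not stated for these cells. Before recording, retrograde beads had been injected into the ventral tegmental area. REG mice, labelled NORM in the sample records, ate standard chow, and HFD mice had chow with 60% fat beside the standard chow for at least 4 weeks. After whole-cell recording the cytosol of each cell was drawn into the patch pipette and sequenced as 1 library, giving 23 REG cells and 20 HFD cells. The study counts 10 REG mice and 11 HFD mice but the labels do not name the mouse of a cell, so each diet was treated as 1 sample and nothing was tested over cells. The spread given below is the spread between cells, and an interval on counts covers only the error of counting, because reads that were amplified are not separate molecules. An interval on a share of cells covers only the drawing of that number of cells, not mice, and is no comparison of the diets.

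Batch 1 held 13 REG and 5 HFD cells and batch 2 held 10 REG and 15 HFD cells, so diet and batch are partly confounded and batch values are given beside most pooled ratios. Total counts ran from 176961 to 16919600 in REG cells and from 178341 to 8242050 in HFD cells, with a median of 10222 and 9639.5 genes detected. At least 4 of 7 medium spiny neuron markers exceeded 15 CPM (counts per 1000000 counts of the cell) in 42 of 43 cells, and at least 2 of 4 markers of the D1 type, which carries the dopamine receptor *Drd1*, did so in 41 cells. In no cell did 2 of 3 glutamatergic markers reach it. At least 2 of 4 markers of the D2 type exceeded 15 CPM in 1 REG and 4 HFD cells. More than 15 CPM was also reached by at least 4 of 7 markers of microglia in 2 REG and 4 HFD cells, by at least 4 of 7 markers of astrocytes in 3 REG and 2 HFD cells, and by at least 3 of 5 markers of oligodendrocytes in 3 REG and 3 HFD cells. At least 4 of 8 markers of local interneurons did so in 1 REG and 0 HFD cells. For oligodendrocyte precursors, at least 2 of 3 markers did so in 1 REG and 0 HFD cells. Their part in the diet ratios was not tested except where values without such cells are given.

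The listed alpha subunits differ at 1 codon that is known to decide whether a receptor binds classical benzodiazepines, and the sequences are shown because the make-up of each cell is described by these genes below. Each is 33 bases of coding sequence in GRCm38, read on the minus strand, with the codon in capitals. The codon reads histidine in *Gabra2* (exon 5, chr5:71014490-71014522), *Gabra3* (exon 5, chrX:72501153-72501185) and *Gabra5* (exon 5, chr7:57488876-57488908). It reads arginine in *Gabra4* (exon 4, chr5:71641137-71641169), whose receptors are known to be insensitive to these drugs.
Gabra2: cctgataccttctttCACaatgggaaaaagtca
Gabra3: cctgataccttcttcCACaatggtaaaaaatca
Gabra4: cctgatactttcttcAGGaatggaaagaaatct
Gabra5: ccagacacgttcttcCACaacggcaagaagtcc

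Between genes, levels were compared in TPM, transcripts per 1000000, which the authors computed per transcript length within each cell. *Gad1*, the larger of the glutamate decarboxylases that make GABA, had the highest median TPM over all cells, at 238. *Slc12a5*, the neuronal chloride extruder KCC2, followed at 116, then *Gad2*, the other decarboxylase, at 86.7, *Gabrd*, the delta subunit, at 83.1, and *Abat*, the enzyme that breaks GABA down, at 82.6. *Gabbr1*, the GABA-binding subunit of the GABA-B receptor, had a median of 68.4 TPM, *Gabra4* 43.9 TPM and *Gabra2* 19.9 TPM. Neighbours in this order overlapped widely over cells, as *Gabrd* alone ran from 0 to 634 TPM.

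Lower medians belonged to *Gphn*, the scaffold gephyrin, at 18.8 TPM, *Gabrb1* at 15.4 TPM, *Nlgn2*, the adhesion molecule neuroligin-2 of inhibitory synapses, at 11 TPM, and *Gabrg3* at 9.11 TPM. *Slc32a1*, the vesicular GABA transporter, had a median of 7.86 TPM, *Gabra5* of 7.12 TPM, *Kctd12* of 6.23 TPM, the chloride importer *Slc12a2* (NKCC1) of 3.70 TPM, *Kctd8* of 2.99 TPM and *Gabrb2* of 2.15 TPM. *Gabbr2*, the subunit through which the GABA-B receptor couples to G proteins, had a median of 0.654 TPM and *Gabrg1* of 0.335 TPM. The median was 0 for *Gabra3*, *Gabre*, *Gabrq*, *Gabrr1*, *Gabrr2*, *Slc6a11* and *Kctd16*.

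**Figure D1:**
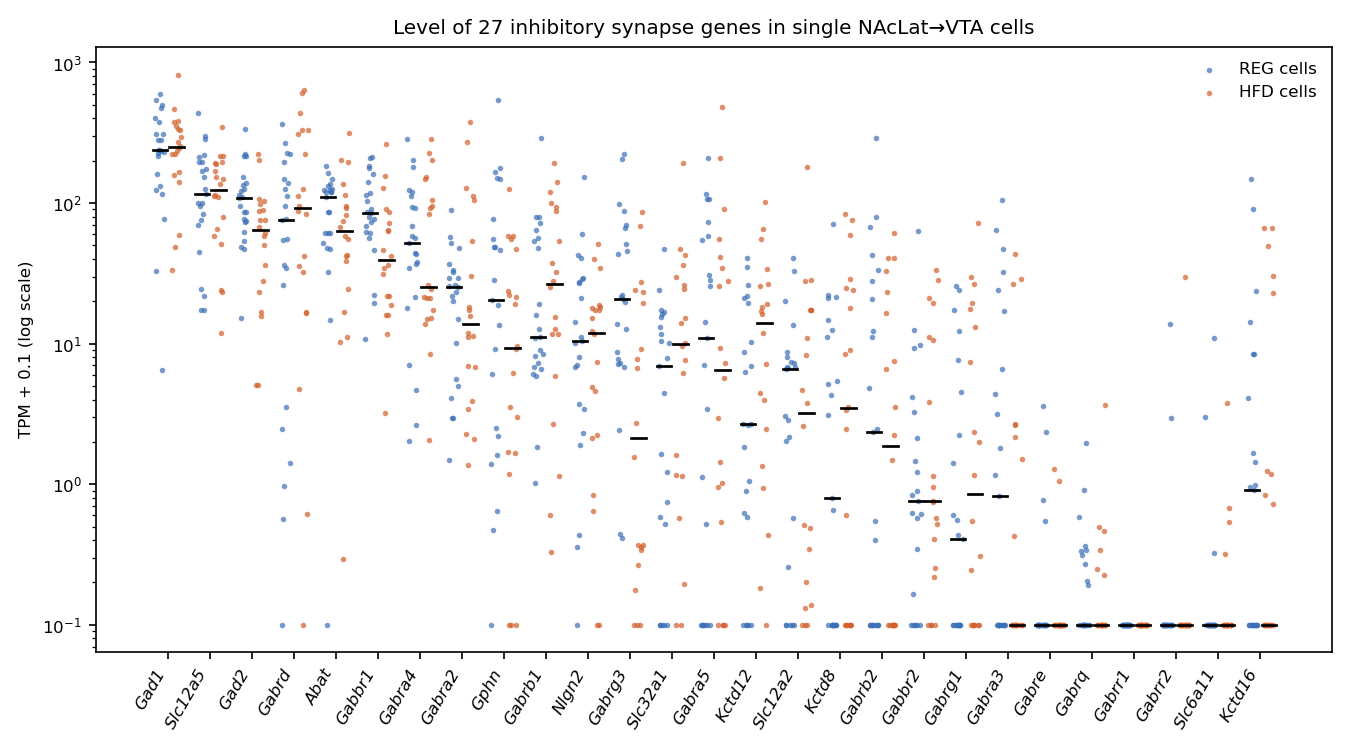
Level of each of the 27 genes in each of 43 cells, as TPM + 0.1 on a log scale, with 1 point per REG cell (blue) or HFD cell (orange) and a black line at the median of each diet. *Gad1* stands highest with a median of 238 TPM over all cells, the diets overlap in every gene that was counted, and *Gabrr1* has no count in any cell.

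Of the rarely counted members, *Gabrr1*, a rho subunit best known from the retina, had 0 counts in 43 of 43 cells, which allows a share of up to 6.98% of cells with a count, taken as 3 of 43. *Gabrr2*, the other rho subunit, was counted in 3 cells, *Gabre* in 6 cells and *Gabrq* in 16 cells. *Slc6a11*, a GABA transporter known from astrocytes, was counted in 7 cells and exceeded 15 CPM in REG cell 19, a cell in which 4 astrocyte markers also exceeded 15 CPM. These 5 genes did not pass the filter for expressed genes, a CPM above 15 in at least 5 cells with a mean CPM above 4, and the other 22 members did.

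The diets were compared by dividing the mean CPM over HFD cells by the mean CPM over REG cells, each cell weighing the same, and the log2 of this quotient is called the ratio. Of the 22 genes, 5 had a ratio of at least 1 and 1 had a ratio of at most −1, or 22.7% and 4.55%. Over all 10802 genes that passed the filter, 9.04% lay at or above 1 and 14.3% at or below −1. With the added condition that the sign did not differ between batches or on dropping any 1 cell, 3 members were higher, where 6.04% of all genes were, and 0 were lower, where 11.6% of all genes were. The median ratio was 0.11 over the members and −0.13 over all genes, whose 5th and 95th percentiles were −1.65 and 1.35. All of the 22 members except *Gabrg1* and *Slc32a1* lay between these percentiles.

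**Figure D2:**
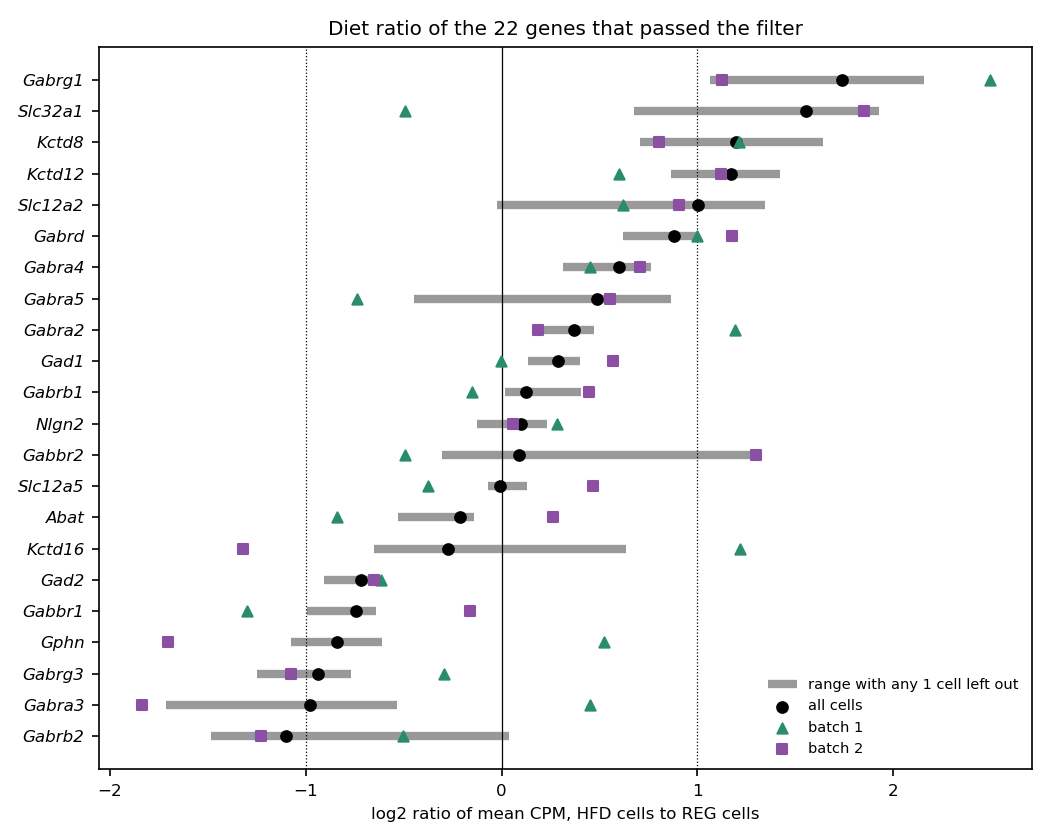
Log2 ratio of mean CPM, HFD cells to REG cells, for the 22 members that passed the filter, over all cells (black circles), within batch 1 (green triangles) and within batch 2 (purple squares). Grey bars span the values on dropping any 1 cell, dotted lines mark −1 and 1, and *Slc12a2* and *Gabrb2* are the genes past a dotted line whose bars cross 0.

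Among the genes for GABA synthesis, *Gad1* had a lowest, median and highest value of 17.6, 378 and 1072 CPM among REG cells and of 61.1, 424 and 1424 CPM among HFD cells. *Gad2* ran from 62.5 to 699.9 CPM in REG cells with a median of 325 CPM, and from 16.2 to 741 CPM in HFD cells with a median of 215 CPM. The *Gad2* values below the REG range were all in HFD cells of batch 2, while the highest values of both genes were in HFD cell 20. Means of 370.3 CPM (REG) and 225 CPM (HFD) gave *Gad2* a ratio of −0.72, which was −0.61 in batch 1 and −0.65 in batch 2 and ran from −0.90 to −0.65 on dropping any 1 cell. For *Gad1* the means were 404 and 493 CPM, with a ratio of 0.29 over all cells, −0.0023 in batch 1 and 0.57 in batch 2, and of 0.14 to 0.40 on dropping any 1 cell.

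The decarboxylases were also compared within each cell, which removes the total of the cell. The difference of log2(TPM + 1), *Gad1* minus *Gad2*, was above 0 in 38 of 43 cells. Its median was 1.16 in REG cells (range −2.69 to 4.28) and 1.72 in HFD cells (range −1.16 to 6.30). The order of the diets was the same in both batches, with 1.16 and 1.40 in batch 1 and 1.08 and 1.88 in batch 2, although the ranges overlapped in each. On CPM, which does not divide by length, the medians were −0.16 and 0.98.

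*Slc32a1*, which fills synaptic vesicles with GABA, ran from 0 to 98.4 CPM in REG cells with a median of 10.7 CPM, and from 0 to 465.9 CPM in HFD cells with a median of 15.6 CPM. Its means of 16.4 and 48.2 CPM gave a ratio of 1.55. A single cell, HFD cell 15, held 48.3% of the CPM of its diet, and without it the ratio was 0.68, the lowest on dropping any 1 cell, against a highest of 1.93. The diets differed in sign between batches, with −0.49 in batch 1 and 1.85 in batch 2. Of the 31-base words of *Slc32a1* transcripts, 24.2% are shared with an antisense gene, and the library kit keeps no strand, so reads that lie within this shared part cannot be told apart.

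*Abat* had a median of 309.6 CPM in REG cells, from 0 to 503 CPM, and of 141.5 CPM in HFD cells, from 0.711 to 1069 CPM. Values were thus spread widely in both diets, with the lowest of all in REG cell 1 and the highest in HFD cell 19. The means of 264 and 228 CPM gave a ratio of −0.21, with −0.84 in batch 1 and 0.26 in batch 2. The value lay between −0.53 and −0.14 on dropping any 1 cell, but it was 0.12 with totals scaled by TMM factors and 0.99 with DESeq2 size factors, so its sign depended on the scaling.

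The alpha subunits varied widely from cell to cell. *Gabra4* and *Gabra2* were counted in all 43 cells, *Gabra5* in 32 cells and *Gabra3* in 20 cells. More than 15 CPM was reached by 1 of these 4 genes in 8 cells, by 2 genes in 17 cells, by 3 genes in 13 cells and by all 4 genes in 5 cells. Of the summed TPM of the 4 genes, *Gabra4* held the largest part in 26 of 43 cells, *Gabra2* in 8 cells, *Gabra5* in 8 cells and *Gabra3* in 1 cell. *Gabra4* had the arginine codon shown above, so in most cells the leading alpha transcript among the 4 was the one known for insensitivity to benzodiazepines.

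*Gabra4* led in 56.5% of the REG cells (13 of 23, exact 95% interval 34.5% to 76.8%) and in 65% of the HFD cells (13 of 20, 40.8% to 84.6%). In batch 1 it led in 9 REG cells of 13 and 2 HFD cells of 5, with *Gabra2* leading in the other 3 HFD cells, whereas in batch 2 it led in 4 REG cells of 10 and 11 HFD cells of 15. With 2 alpha subunits outside the list added to the sum, *Gabra4* led in 21 cells and a subunit outside the list in 8 cells.

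**Figure D3:**
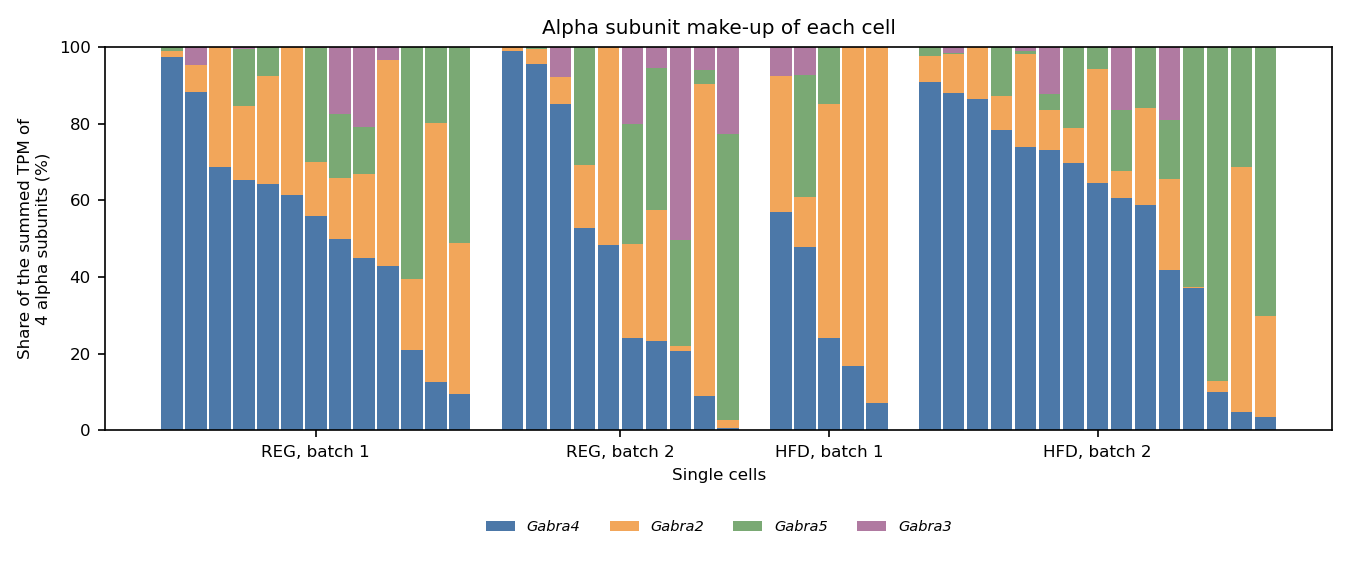
Share of the summed TPM of *Gabra4*, *Gabra2*, *Gabra5* and *Gabra3* in each cell, in percent, with 1 bar per cell and cells sorted by the *Gabra4* share within diet and batch. The *Gabra4* share runs from 0.684% to 98.9%, and *Gabra2* leads in 3 of the 5 HFD cells of batch 1.

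*Gabra4* ran from 2.99 to 424 CPM in REG cells with a median of 119.9 CPM, and from 3.88 to 848 CPM in HFD cells with a median of 65 CPM. The median was lower in HFD cells while the mean was higher, 193 CPM against 127 CPM, and 3 HFD cells lay above the highest REG cell. The ratio of means was 0.60, with 0.45 in batch 1 and 0.71 in batch 2, and it lay between 0.32 and 0.76 on dropping any 1 cell. It was −0.87 between medians and 0.10 on TPM.

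*Gabra2* had a median of 57.9 CPM in REG cells, from 3.61 to 166 CPM, and of 48.8 CPM in HFD cells, from 3.71 to 280.1 CPM. In the 5 HFD cells of batch 1 the values were 213, 266, 248, 12.5 and 187 CPM, and 4 of them exceeded every REG cell of the same batch, where the highest value was 166 CPM. Means of 65.2 and 84.2 CPM gave a ratio of 0.37 over all cells, 1.19 in batch 1 and 0.19 in batch 2, with 0.18 to 0.47 on dropping any 1 cell. The ratio was 1.2 on TPM and −0.63 between summed counts, so it depended on how cells and transcript lengths were weighed.

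Within cells, *Gabra4* minus *Gabra2* in log2(TPM + 1) had a median of 1.10 in REG cells and 1.61 in HFD cells, and was above 0 in 30 of 43 cells. In batch 1 the medians were 1.10 and −1.33, and in batch 2 they were 0.81 and 2.34, so the batches went opposite ways. *Gabra5*, known from extrasynaptic receptors of the hippocampus, had a ratio of 0.49, with −0.74 in batch 1 and 0.56 in batch 2, that was −0.45 without HFD cell 19. *Gabra3* had a ratio of −0.98, with 0.45 in batch 1 and −1.84 in batch 2, and −1.71 to −0.54 on dropping any 1 cell.

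Of the beta subunits, *Gabrb1* was counted in all 43 cells and *Gabrb2* in 25 cells. *Gabrb1* exceeded *Gabrb2* in TPM in 34 cells, but a beta subunit outside the list led in 26 of 43 cells once it was added, so the listed genes were not the main beta transcripts there. The diet ratio of *Gabrb1* was 0.13, from means of 144 and 157 CPM, with −0.15 in batch 1, 0.45 in batch 2 and 0.02 to 0.41 on dropping any 1 cell. *Gabrb2* ran from 0 to 389.9 CPM in REG cells with a median of 1.41 CPM, and from 0 to 75.5 CPM in HFD cells with a median of 2.23 CPM. REG cell 1, with the lowest total count of all cells, held 56.6% of the REG sum, and the next REG cell stood at 77.2 CPM. The ratio of −1.10, from means of 29.9 and 13.9 CPM, was −0.50 in batch 1 and −1.23 in batch 2, and it ran from −1.48 to 0.04 on dropping any 1 cell, the latter without REG cell 1.

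*Gabra4* and *Gabrb1* run in opposite directions and overlap at their starts on chromosome 5, in a cluster with *Gabra2* and *Gabrg1* (chr5:70751047-72149037 from the end of *Gabrg1* to the end of *Gabrb1*, GRCm38). The RefSeq start sites of *Gabra4* and *Gabrb1* are 387 bases apart. Both genes exceeded 15 CPM in 34 of 43 cells, *Gabra4* alone in 5 and *Gabrb1* alone in 4. Taken singly, *Gabra4* exceeded it in 39 cells and *Gabrb1* in 38, so wide overlap follows from these totals. A link to the start sites was not tested. The sequence shown is the 250 bases upstream of the *Gabra4* start (RefSeq, GRCm38.p6, chr5:71658309-71658558, minus strand), which lies within the span of *Gabrb1*, with GC boxes, the letters GGGCGG or their reverse complement, in capitals. Its GC content is 61.2%. Their transcripts share no 31-base word in the annotation used, so reads of either gene could be assigned to it.
Gabra4 upstream: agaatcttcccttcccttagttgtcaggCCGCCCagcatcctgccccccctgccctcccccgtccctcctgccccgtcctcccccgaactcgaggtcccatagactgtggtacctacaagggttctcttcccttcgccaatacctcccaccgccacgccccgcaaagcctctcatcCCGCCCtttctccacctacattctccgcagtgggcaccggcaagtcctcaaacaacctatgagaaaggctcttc

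Promoter windows of 300 bases were at hand for 23 of the 27 genes, 28 windows in all, and were searched on both strands. A GC box was found in 15 of the 28 windows, in 15 genes, and in 32.7% of 32851 windows of all genes. The letters TATAAA were found in 4 windows of 3 genes, *Gabra3*, *Gabrb2* and *Gad1*, and in 12.4% of all windows. The cAMP response element TGACGTCA was found in 1 gene, *Kctd8*, and in 1.55% of all windows. The motifs do not overlap in their letters, and a match describes the sequence only.

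The gamma and delta subunits bear on whether a receptor lies mostly at the synapse or outside it, but they do not settle this alone. *Gabrd* lacked a count in 1 REG cell and in 1 HFD cell. It ran from 0 to 301 CPM in REG cells with a median of 96.7 CPM, and from 0 to 803 CPM in HFD cells with a median of 99.1 CPM. The pooled medians were close, and by batch REG and HFD cells had medians of 115 and 96.9 CPM in batch 1 and 52.5 and 100.2 CPM in batch 2. Of the HFD cells 6 lay above the highest REG cell, and the means were 106 and 195 CPM. The ratio was 0.88, with 1.0 in batch 1 and 1.18 in batch 2, and it lay between 0.62 and 1.01 on dropping any 1 cell. In batch 1 the HFD mean rested largely on HFD cell 2, at 803 CPM, as the other HFD cells had 5.61, 46.7, 96.9 and 327 CPM.

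*Gabrg3* had counts in every REG cell and in 17 of 20 HFD cells. In REG cells it ran from 2.05 to 256 CPM with a median of 52.4 CPM, and in HFD cells from 0 to 183 CPM with a median of 9.59 CPM. The ratio of means, 74.7 and 39.1 CPM, was −0.94, with −0.29 in batch 1 and −1.08 in batch 2, and −1.25 to −0.77 on dropping any 1 cell. Low HFD values were most frequent in batch 2, where the HFD median was 2.27 CPM against a REG median of 27.8 CPM, while in batch 1 the medians were 64.2 and 72.9 CPM. *Gabrg3* exceeded 15 CPM in 82.6% of the REG cells (19 of 23, exact 95% interval 61.2% to 95%) and in 45% of the HFD cells (9 of 20, 23.1% to 68.5%). Thinned to 150000 counts per cell, 22 REG cells (95.7%, 78.1% to 99.9%) and 11 HFD cells (55%, 31.5% to 76.9%) kept a count. On TPM the ratio was −1.70.

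*Gabrg1*, a gamma subunit known also from glia, was low in most cells. It ran from 0 to 43.9 CPM in REG cells with a median of 0.465 CPM, and from 0 to 182 CPM in HFD cells with a median of 0.973 CPM. More than 15 CPM was reached in 3 REG cells and 6 HFD cells. The ratio of 1.74, from means of 6.73 and 22.5 CPM, was the highest of the 22 members, with 2.49 in batch 1, 1.13 in batch 2, and 1.07 to 2.16 on dropping any 1 cell. The lowest value came without HFD cell 16, in which 6 of 7 microglial and 4 of 7 astrocyte markers exceeded 15 CPM. Without all cells that had at least 4 microglial markers at this level the ratio was 1.65, and without those that had at least 4 astrocyte markers it was 1.08. Between summed counts the ratio was 1.03, with a counting interval of 0.89 to 1.17. This interval was narrower than the range over cells left out, and it does not apply to the ratio of means.

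Of the summed TPM of *Gabrd*, *Gabrg3* and *Gabrg1*, *Gabrd* held a median of 58.9% in REG cells and 89.9% in the 19 HFD cells with a count. The medians were 69.5% and 89.9% in batch 1 and 47.8% and 89.2% in batch 2, and single cells ran from 0 to 97.2% in REG cells and from 26% to 100% in HFD cells. *Gabrd* led in 65.2% of the REG cells (15 of 23, 42.7% to 83.6%) and in 89.5% of the HFD cells (17 of 19, 66.9% to 98.7%). This contrast depended on the denominator. With a subunit outside the list added, the median share was 45.8% and 51.0%, and *Gabrd* led in 12 REG cells and 12 HFD cells. *Gabra4* and *Gabrd*, the alpha and delta partners of extrasynaptic receptors in the striatum, both exceeded 15 CPM in 31 of 43 cells, 15 of them REG cells and 16 HFD cells. Taken singly, *Gabra4* exceeded it in 39 cells and *Gabrd* in 33.

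**Figure D4:**
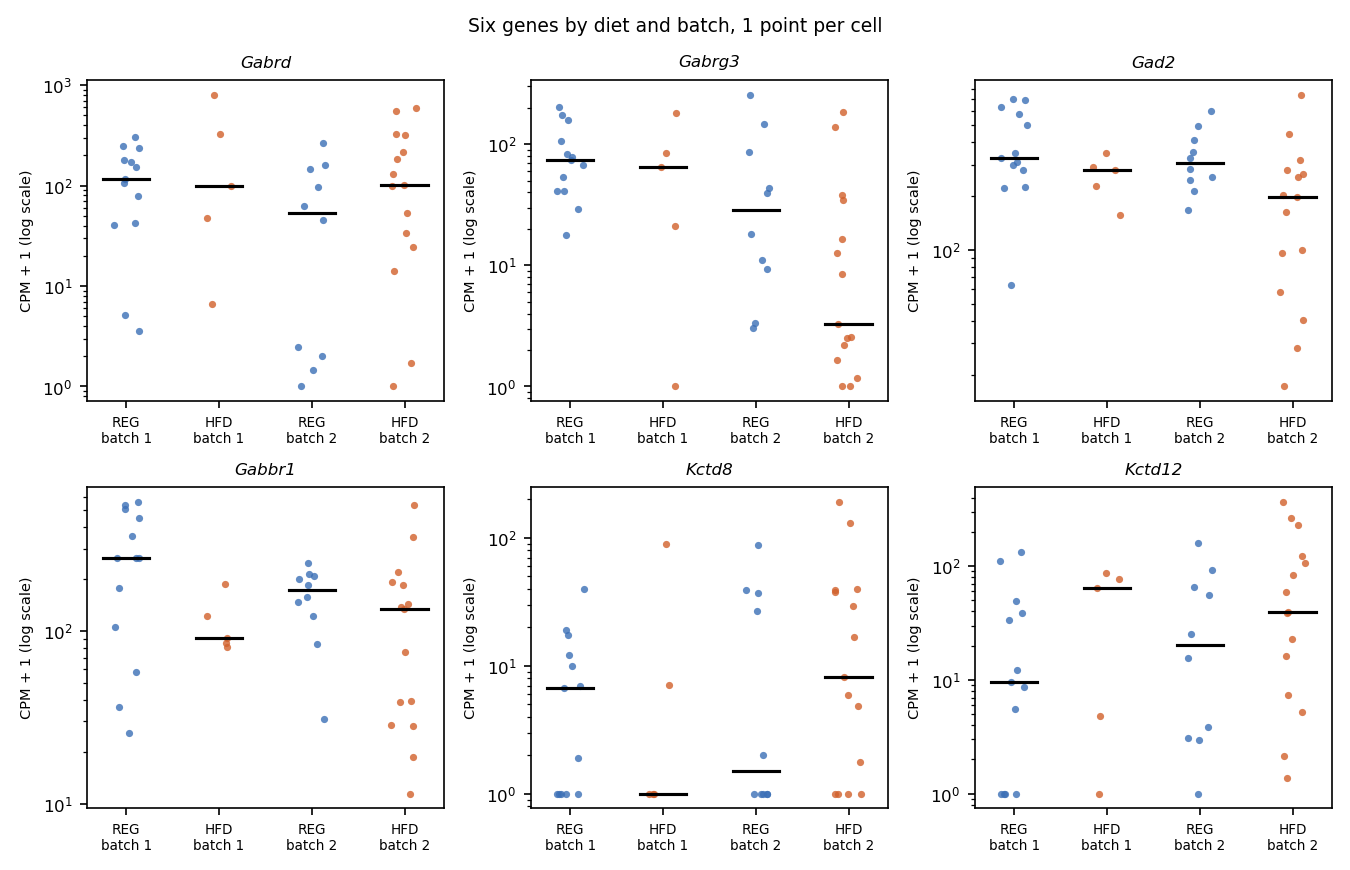
CPM + 1 on a log scale for *Gabrd*, *Gabrg3*, *Gad2*, *Gabbr1*, *Kctd8* and *Kctd12*, with 1 point per cell, separated by diet and batch, and a black line at the median of each group. In batch 2 the *Gabrg3* median is 27.8 CPM for REG and 2.27 CPM for HFD, and in batch 1 the *Gabbr1* median is 263.5 and 89.8 CPM.

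The GABA-B receptor needs both of its subunits, and their transcripts were far apart in level. *Gabbr1* exceeded 15 CPM in 42 of 43 cells, *Gabbr2* in 9 cells, and every cell with *Gabbr2* above this level also had *Gabbr1* above it. Any count of *Gabbr2* was present in 33 cells. The difference *Gabbr1* minus *Gabbr2* in log2(TPM + 1) was above 0 in all 43 cells. Its median was 5.34 in REG cells and 3.54 in HFD cells, with 5.34 and 2.89 in batch 1 and 5.36 and 3.57 in batch 2, so it was smaller in HFD cells in both batches, with overlapping ranges of 1.10 to 7.62 and 0.17 to 7.89 over all cells. The size of this gap depended on the unit and the pseudocount. On CPM with 0.1 added in place of 1, the medians were 5.85 and 5.65, with 5.85 and 2.86 in batch 1 and 6.15 and 5.96 in batch 2.

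*Gabbr1* ran from 24.8 to 559.7 CPM in REG cells with a median of 199.9 CPM, and from 10.4 to 540.0 CPM in HFD cells with a median of 106 CPM. In batch 1 the 5 HFD cells lay between 79.8 and 186 CPM, inside the range of the REG cells. The ratio, from means of 225.5 and 135 CPM, was −0.74, with −1.30 in batch 1 and −0.16 in batch 2, and −0.99 to −0.64 on dropping any 1 cell. With DESeq2 size factors it was −0.01. *Gabbr2* had a ratio of 0.09 with means of 16.9 and 17.9 CPM, but −0.49 in batch 1 and 1.3 in batch 2. REG cell 10 held 58.9% of the REG sum, and without it the ratio was 1.31.

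The auxiliary subunits *Kctd8* and *Kctd12*, which bind the GABA-B receptor and shape the time course of its signal, both had higher means in HFD cells in each batch. *Kctd12* ran from 0 to 159 CPM in REG cells with a median of 11.3 CPM, and from 0 to 366.5 CPM in HFD cells with a median of 48.5 CPM. Its ratio was 1.17, from means of 35.1 and 79.2 CPM, with 0.60 in batch 1, 1.12 in batch 2 and 0.87 to 1.42 on dropping any 1 cell. Above 15 CPM were 10 REG cells and 14 HFD cells. An antisense gene and other transcripts share 63.1% of the 31-base words of *Kctd12*, and without strand, reads that lie within this shared part cannot be told apart.

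*Kctd8* ran from 0 to 87.4 CPM in REG cells with a median of 0.996 CPM, and from 0 to 190.4 CPM in HFD cells with a median of 5.51 CPM. Its values were 0 in 10 REG cells and 7 HFD cells, and the 3 highest values, 190.4, 129 and 88.9 CPM, were in HFD cells. The ratio of 1.2, from means of 12.8 and 29.5 CPM, was 1.21 in batch 1 and 0.80 in batch 2, and 0.71 to 1.64 on dropping any 1 cell. In batch 1 the HFD mean rested on HFD cell 5, at 88.9 CPM, since 3 of the 5 cells had no count. Without the cells with microglial markers the ratio was 1.40, and without the cells with astrocyte markers it was 1.3. *Kctd8* and *Kctd12* both exceeded 15 CPM in 4 REG cells and 8 HFD cells. Taken singly, *Kctd8* exceeded it in 7 REG and 8 HFD cells and *Kctd12* in 10 and 14. *Kctd16*, the third auxiliary subunit on the list, had a ratio of −0.27, with 1.22 in batch 1 and −1.32 in batch 2, and it ran from −0.65 without HFD cell 20 to 0.64 without REG cell 18.

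Of the chloride transporters, *Slc12a5* exceeded *Slc12a2* in TPM in 42 of 43 cells, and the exception was an HFD cell of batch 2. The median difference in log2(TPM + 1) was 4.15 in REG cells and 4.2 in HFD cells over both batches. The batches were ordered oppositely, with 5.32 and 3.11 in batch 1 and 3.73 and 4.26 in batch 2. *Slc12a5* ran from 16.5 to 552 CPM in REG cells with a median of 139 CPM, and from 11.6 to 309.1 CPM in HFD cells with a median of 180.5 CPM. Its means of 181 and 179.9 CPM gave a ratio of −0.01, with −0.38 in batch 1, 0.47 in batch 2 and −0.07 to 0.13 on dropping any 1 cell. With TMM factors the ratio was 0.32 and with DESeq2 size factors 0.82.

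*Slc12a2* ran from 0 to 184 CPM in REG cells with a median of 24.6 CPM, and from 0 to 697 CPM in HFD cells with a median of 14.6 CPM. The ratio of means, 32.6 and 65.3 CPM, was 1.0, with 0.62 in batch 1 and 0.91 in batch 2. HFD cell 10 held 53.3% of the HFD sum, and without it the ratio was −0.02, so the value past the limit rested on that cell. The highest value on dropping any 1 cell was 1.34.

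**Figure D5:**
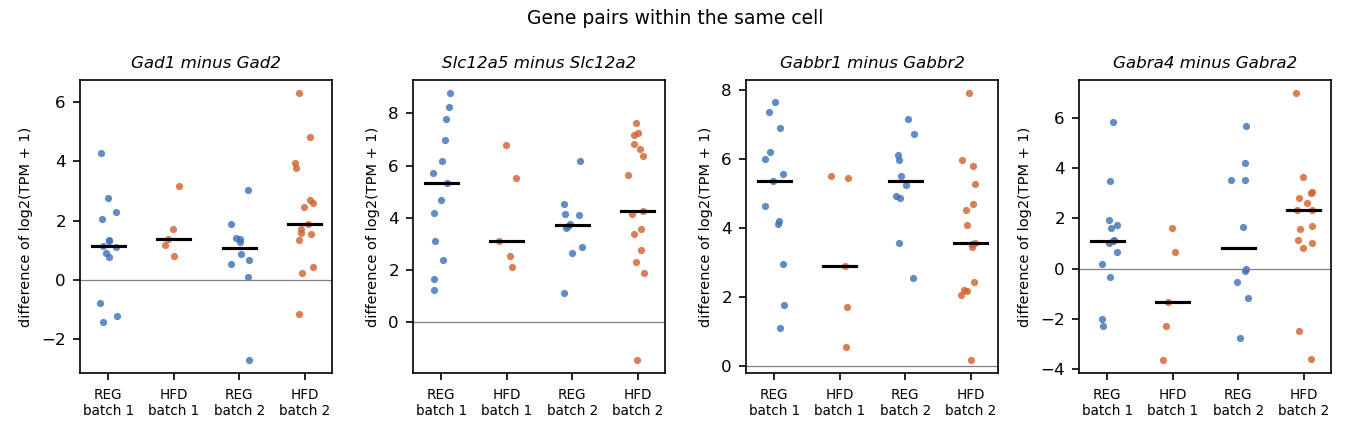
Difference of log2(TPM + 1) between the genes of a pair within the same cell, with 1 point per cell, separated by diet and batch, and a black line at the median of each group. *Gabbr1* lies above *Gabbr2* in all 43 cells and *Slc12a5* above *Slc12a2* in 42 cells, whereas the *Gabra4* and *Gabra2* medians are ordered oppositely in the batches.

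Of the postsynaptic proteins, *Gphn*, which anchors GABA-A and glycine receptors, had means of 65.3 and 36.4 CPM and a ratio of −0.84, with 0.52 in batch 1 and −1.70 in batch 2. *Nlgn2* had means of 36.4 and 39 CPM and a ratio of 0.10, but −0.69 on TPM. Neither gene had the same direction throughout, since *Gphn* differed in sign between batches and *Nlgn2* between scales.

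Other genes related to the inhibitory synapse, 46 outside the 27, were read in the same way. They include receptors, transporters, scaffolds, chloride-regulating kinases and GABA-B effectors. Of the 39 that passed the filter, 0 had a ratio of at least 1, where 9.04% of all genes did. A ratio of at most −1 was found for 2 of them, or 5.13%, where 14.3% of all genes had one. The median ratio was 0.02, and −0.13 over all genes. *Lhfpl4*, which tethers GABA-A receptors to neuroligin-2, had means of 63.6 and 27.2 CPM and a ratio of −1.23, with −1.40 in batch 1, −0.79 in batch 2 and −1.5 to −1.04 on dropping any 1 cell. The glycine receptor subunit *Glra2* had a ratio of −1.41, with 0.20 in batch 1 and −2.38 in batch 2, and it ran from −2.43 without HFD cell 16 to −0.58 without REG cell 18. Others with a stable sign included *Kctd1* at −0.91 (−0.36 in batch 1 and −0.81 in batch 2) and the gephyrin-binding *Dynll1* at −0.57 (−0.38 and −0.25). *Kctd1* is not among the listed auxiliary subunits of the GABA-B receptor. The trafficking adaptor *Trak1* had a ratio of 0.46 (0.57 and 0.12). The carbonic anhydrase *Car2*, with a median of 0 TPM over all cells, had 0.70 (1.38 and 0.00055), so it hardly differed in batch 2.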

How the data were processed

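Patch-seq libraries (SMART-Seq chemistry, Nextera XT, no strand kept) of 43 cells were analysed. With kallisto and the transcripts of GRCm38, the authors obtained and deposited, for 35825 genes, estimated counts without normalization and, in another table, TPM scaled within each cell. An entry above 0 in either table is above 0 in the other, and 65.5% of such counts are whole to within 0.01. The authors removed cells of low depth before deposit. Groups, batches and cell numbers follow the labels, with cells numbered in accession order.

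CPM is the estimated count over the total of the cell, times 1000000. Ratios compare mean CPM without a pseudocount, and ratios between medians and within-cell differences add 1. In the shares over all genes, a gene with 0 counts in HFD cells was taken as past the lower limit; no member that passed the filter had a diet at 0. Shares carry exact Clopper-Pearson 95% intervals and counts exact Poisson intervals. Thinning drew 150000 counts per cell without replacement. The median total count was 1426800, and no 2 cells correlated above 0.577. All 27 members are named. Those past a log2 ratio of 1 in size and the 8 with the highest median TPM are given in full, *Gabrg3* was added after its values were seen, and of the other synapse genes the 6 largest with a stable sign were to be named (1 is not reported here), *Glra2* being added after its values were seen. The members and lists were chosen with earlier results of these data known.

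Alternatives covered TPM, TMM factors, totals that exclude *Lars2* and *Gm19220*, DESeq2 size factors, other summaries over cells, each batch, an edgeR coefficient with batch read as a value, thinning, other filters, and leaving out cells. Added after seeing the data were subunits outside the list in the denominators and leaving out the highest HFD cell. The ratio was tested on simulated counts. Sequences came from GENCODE M21 and RefSeq. Software was R 4.3.3 with edgeR 4.0.16 and DESeq2 1.42.0, and Python 3.11.15 with scipy 1.17.1, pandas 2.3.3 and numpy 2.4.6. Electrophysiology was not analysed here.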

Additional observations from a re-analysis of the deposited data

How the results depend on the processing

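The mouse of a cell is not named, so no alternative carries a test. No paired analysis was possible because replicate numbers only name cells. The cause was not tested for any value that moved. Over 17 alternatives, *Gabrg1*, *Gabrg3*, *Gabrd*, *Gabbr1*, *Gad2*, *Kctd8* and *Kctd12* kept their sign, with *Gabrd* as low as 0.036 and *Gabbr1* as high as −0.013. *Gabrb2* was 0.34 between summed counts, 0.42 between medians over cells and −1.48 to 0.037 with any 1 cell left out, the highest without REG cell 1, against −1.10. *Slc12a2* was −0.72 between medians, −0.13 as the difference of mean log2(CPM + 1) and −0.022 to 1.34 with any 1 cell left out, the lowest without HFD cell 10, against 1.0. *Slc32a1* was −0.49 in batch 1, against 1.55.

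The counts of members past a limit that follow lack the share of all genes under the same alternative. They show how the counts moved and are not read as results about the members. The 5 members at or above 1 became 9 with DESeq2 size factors and with summed counts, 2 with medians, 1 with the difference of mean log2(CPM + 1), 3 as the mean of both batches and after thinning, and 3 to 6 with any 1 cell left out. The 1 member at or below −1 became 4 on TPM, 5 in batch 2, 0 as the mean of both batches and with the edgeR coefficient, and 2 with summed counts, medians, the difference of mean log2(CPM + 1), no filter, or without cells with microglial or astrocyte markers, and 0 to 3 with any 1 cell left out. The median ratio of 0.11 became 0.31 with TMM factors, 0.91 with DESeq2 size factors, 0.48 with summed counts, −0.27 with medians, −0.048 with that difference of means, 0.46 in batch 2, 0.43 with the edgeR coefficient, 0.27 after thinning, 0.21 with 15 CPM required in 10 cells, and 0.051 to 0.26 with any 1 cell left out. TMM factors shifted the median of all genes by 0.14 and DESeq2 size factors by 0.27. *Gabra4* led in 40% of HFD cells in batch 1, and *Gabrd* in 60% of HFD cells with the subunit outside the list added.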

Other observations

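Within REG cells alone, several members had different levels in the batches. The mean of *Gabrg1* was 3.97 CPM in the 13 REG cells of batch 1 and 10.3 CPM in the 10 REG cells of batch 2, but REG cell 12 held 85% of the batch 1 sum. In the same order, *Gabra2* had 81.2 and 44.4 CPM and *Gabbr1* 276.6 and 159 CPM. The median of *Gabrg3* was 72.9 CPM in batch 1 and 27.8 CPM in batch 2, and *Gabrg3* exceeded 15 CPM in 13 of 13 and 6 of 10 REG cells. *Gad2* was closer, with means of 397.7 and 334.6 CPM. The labels do not say what a batch stands for, and its part in these values was not tested.

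*Gabra5* and *Gabrg3* both exceeded 15 CPM in 10 REG cells and 4 HFD cells, *Gabrg3* alone in 9 REG cells and 5 HFD cells, and neither in 2 REG cells and 6 HFD cells. Taken singly, *Gabra5* exceeded it in 12 REG and 9 HFD cells and *Gabrg3* in 19 and 9. The joint numbers depend on these totals and are not read as a pairing of the genes. *Gabra2* and *Gabrb1*, which lie in the chromosome 5 cluster with *Gabra4* between them, both exceeded 15 CPM in 17 REG cells and 11 HFD cells. Taken singly, *Gabra2* exceeded it in 19 REG and 13 HFD cells and *Gabrb1* in 21 and 17, so wide overlap follows from these totals.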
